A study of Homo sapiens with 2 samples.

Results

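The genes of 10 immune checkpoint ligands were examined in doxorubicin-resistant SUM159 cells, and CD276, which encodes B7-H3, was the most abundant of them per exonic length. The genes were taken by symbol from the 23368 symbols of the count files: CD274, PDCD1LG2, CD276, VTCN1, C10orf54, CD47, LGALS9, PVR, PVRL2 and CD80. C10orf54 is the older symbol of VSIR, the gene of VISTA, and PVRL2 that of NECTIN2. SUM159 is a triple-negative breast cancer line, labelled with a wild-type genotype (Wt). The resistant population was obtained by long-term exposure of attached cells to increasing amounts of doxorubicin, a topoisomerase II poison. By the methods of the paper, exposure was followed by recovery in medium without the drug. The data are polyA RNA-seq counts of 2 libraries, replicates 1 and 2, and the labels do not state whether they came from separate cultures, so that the spread between them may be technical. Treatment-naïve cells were not analysed here, so the values are levels in the resistant cells, and no fold change upon resistance is given.

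Checkpoint ligands are surface or secreted proteins by which a cell restrains the immune cells that touch it. PD-L1 and PD-L2 bind PD-1 on T cells, CD80 binds CD28 and CTLA-4, PVR binds TIGIT, CD96 and CD226 on T cells and natural killer cells, and nectin-2 binds PVRIG, TIGIT and CD226 there. CD47 binds SIRPα on macrophages and inhibits phagocytosis, and galectin-9 binds TIM-3, the product of HAVCR2. For B7-H3 and B7-H4 the inhibitory receptor is not settled. In breast carcinoma these ligands can be made by the tumor cells as well as by infiltrating leukocytes, which a cell line does not contain.

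The libraries held 23044084 and 17985508 counts in replicates 1 and 2, and 1 count was worth 0.0434 and 0.0556 counts per 1000000 counts of the library (CPM). With 3 counts taken as the limit, a count of 0 allows a level of 0.130 CPM in replicate 1 and one of 0.167 CPM in replicate 2. Such limits, and the counting intervals given for single values, cover counting error only. The mesenchymal markers ran from VIM with 1576 and 1338 RPKM, which is CPM per kb of merged exons, to CDH2 with 22.9 and 30.8 RPKM. Of the epithelial markers, KRT18 had 133 and 91.9 RPKM and KRT19 had 0.483 and 0.595 RPKM, whereas EPCAM had 6 and 6 counts and the E-cadherin gene CDH1 had 9 and 13. Of 19 leukocyte markers, 13 had at most 3 counts in both libraries. CD3E, CD2, CD8A, MS4A1 and TYROBP had none, PTPRC, the pan-leukocyte marker CD45, had 48 and 31 counts, and the listed markers CD14, CD68 and NCAM1 were higher. CD14 had 356 and 137 counts, or 15.4 and 7.62 CPM, and CD68 had 704 and 357 counts, or 30.6 and 19.8 CPM. The 19 markers summed to 154 and 207 CPM, of which NCAM1, a gene of neural as well as natural killer cells, gave 105 and 177 CPM. Replicate 2 had higher values of long genes, with a Spearman rho of 0.51 between merged exon length and the log2 ratio of replicate 2 over replicate 1 across 13030 genes, which are not independent replicates.

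Of the 10 ligand genes, 8 reached a mean count of 20, against 52.8% of all listed genes. The order by mean RPKM was CD276, PVRL2, PVR, CD47, PDCD1LG2, C10orf54, CD274, LGALS9, VTCN1 and CD80. The median over the 10 genes was 5.87 RPKM, against 0.879 RPKM over all 21208 genes with a length and 6.39 RPKM over those with a mean count of at least 20. The 4 highest genes together made up 88.1% of the summed RPKM of the ligands in replicate 1 and 85.4% in replicate 2, whereas CD274 and PDCD1LG2 together made up 7.12% and 10.8%. By merged exon length, neighbours in this order had ranges that did not overlap between genes, except PVR with CD47 and C10orf54 with CD274. Each of these pairs changed places between the libraries. With the longest annotated transcript as length, PVR was above CD47 in both libraries. VTCN1, with 4 and 1 counts, is not told apart from CD80, which had none, since both lie near the limit of a count of 0. With 2 libraries, no test between genes was made.

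**Figure D1:**
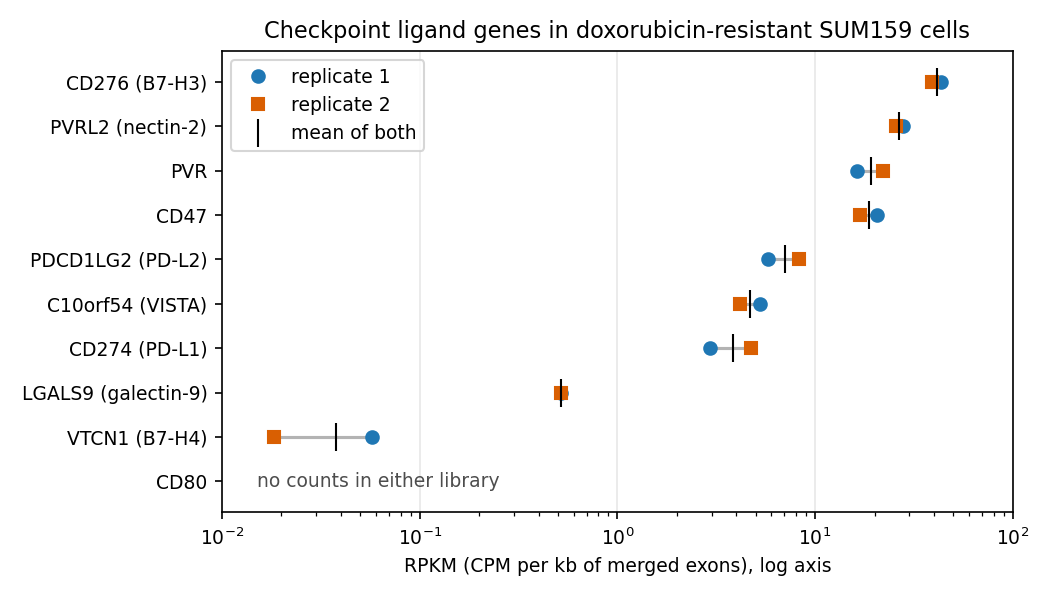
RPKM on a log axis of the 10 checkpoint ligand genes in the doxorubicin-resistant libraries, ordered by mean. Replicate 1 is drawn as circles, replicate 2 as squares and the mean as vertical marks, from VTCN1 at 0.0379 RPKM to CD276 at 41.3 RPKM, and CD80 had no counts.

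The promoters of these genes differed in their content of CpG dinucleotides. In the 250 bases before the RefSeq start site (build GRCh38.p14), 8 of the 10 genes were matched, and those of CD276 and PDCD1LG2 were not. The 5 matched genes with over 1 RPKM held 16 to 39 CpG, and the 3 with less, LGALS9, VTCN1 and CD80, held 1 to 6, against a median of 11 over 35114 promoters of the same length. This is a description of 8 genes, with no test. CD47, with the most CpG, LGALS9, with the fewest, and CD274, with an interferon motif, are shown 5′ to 3′ as examples of these promoters. Capitals mark CpG in CD47 (chr3:108091032-108091281, minus strand) and LGALS9 (chr17:27630938-27631187, plus strand), and in CD274 (chr9:5450292-5450541, plus strand) the matches to the interferon-stimulated response element.
CD47: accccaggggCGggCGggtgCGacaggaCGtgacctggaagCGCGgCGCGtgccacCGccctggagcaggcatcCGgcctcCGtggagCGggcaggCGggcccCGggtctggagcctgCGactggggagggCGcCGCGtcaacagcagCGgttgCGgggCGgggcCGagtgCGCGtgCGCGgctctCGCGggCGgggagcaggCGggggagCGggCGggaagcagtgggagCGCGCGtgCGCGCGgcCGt
LGALS9: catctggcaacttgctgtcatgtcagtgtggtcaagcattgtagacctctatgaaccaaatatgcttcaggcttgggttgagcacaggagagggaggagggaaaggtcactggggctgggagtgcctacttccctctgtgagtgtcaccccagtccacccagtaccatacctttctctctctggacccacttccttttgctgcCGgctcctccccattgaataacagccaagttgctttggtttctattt
CD274: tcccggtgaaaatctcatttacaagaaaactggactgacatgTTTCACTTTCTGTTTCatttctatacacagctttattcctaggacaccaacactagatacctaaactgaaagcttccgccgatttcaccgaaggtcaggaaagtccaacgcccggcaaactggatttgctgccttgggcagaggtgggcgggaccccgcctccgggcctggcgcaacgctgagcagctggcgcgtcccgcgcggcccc
The CD47 window held 39 CpG, more than in 97.3% of promoters, and the LGALS9 window 1. The element was searched on both strands by its usual consensus. CD274 held 2 matches, which overlap each other, between 208 and 193 bases before the start, none of the other 7 promoters held one, and 3.02% of all promoters did. CD274 also held 1 match to the gamma-activated site TTCNNNGAA, where N is any base, which 6.57% of all promoters hold and none of the other 7 did. The same windows were searched for AP-1 and NF-kappaB sites, the hypoxia response element and the TATA box. Of these, only the hypoxia response element was matched, by CD47 with 1 match, and 18.5% of all promoters hold it. A match of letters does not show that a factor bound there.

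**Figure D2:**
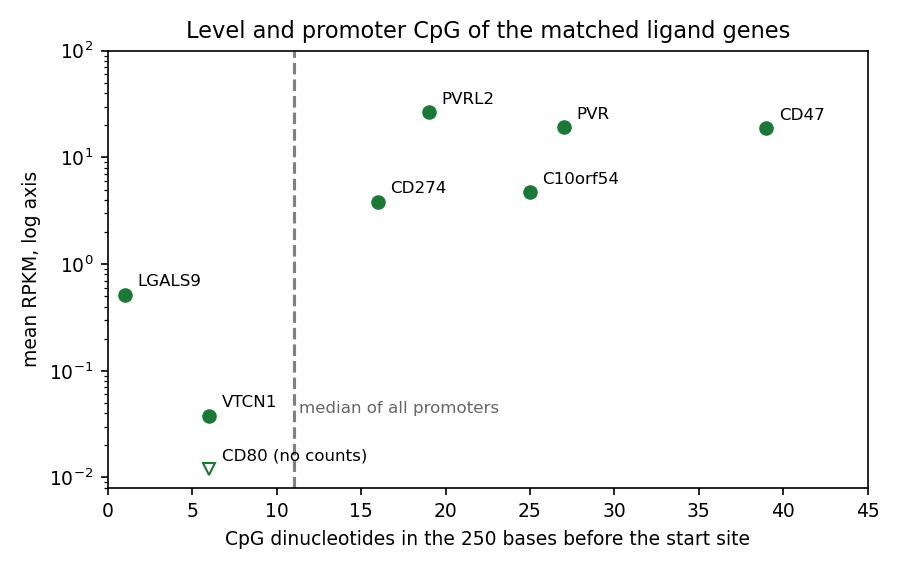
Mean RPKM on a log axis against the number of CpG dinucleotides in the 250 bases before the start site, for the 8 ligand genes with a promoter sequence. Each circle is a gene, the open triangle is CD80, which had no counts, and the dashed line is the median of all promoters, 11, above which lie the 5 genes with over 1 RPKM.

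The B7 family member CD276 was read 5477 times in replicate 1 and 3864 times in replicate 2. This is 43.4 and 39.2 RPKM, or 41.3 ± 2.95 RPKM (SD, n = 2), higher than in 95.1% of genes with a length. CD276 occupies bases 73976307 to 74006855 of chromosome 15 in GRCh37, the build of all gene positions given here, and its product B7-H3 is a surface protein that inhibits T cells and is common on carcinomas. Per length it stood above each of the other ligands in both libraries, though not by counts in replicate 2, where PVR had 4125, and its level per length was 14.8 and 8.23 times that of CD274 in replicates 1 and 2. Per length, CD276 exceeded PVRL2, the next gene, 1.56-fold in replicate 1 and 1.54-fold in replicate 2. These ratios depend on the length used and are larger with the longest annotated transcript. By that length CD276 had 72.1 and 65.2 RPKM, PVRL2 38.6 and 35.5 RPKM and CD274 3.31 and 5.39 RPKM in replicates 1 and 2.

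The nectin-like ligands of TIGIT and CD226 followed. PVRL2 (chromosome 19, 45349432 to 45392480) had 27.7 and 25.5 RPKM, from 2392 and 1718 counts. Its values in both libraries lay above those of PVR, the poliovirus receptor CD155, which had 16.2 RPKM in replicate 1 and 22.0 RPKM in replicate 2. PVR (chromosome 19, 45147098 to 45169430) has merged exons of 10427 bp, the longest of the 10 genes, which took up 3893 and 4125 counts. The merged exons of PVR share 121 bp with CEACAM19, which had 192 and 90 counts. They share 2029 bp with another annotated gene on the same strand, which has no symbol among the counts. Reads in such overlaps may have been left out. Among the other nectin and cell adhesion molecule (CADM) genes, 6 of 7 reached a mean count of 20. The cell adhesion gene PVRL1 was the highest with 24.2 and 23.1 RPKM, PVRL4 the lowest of the 6 per length with 6.90 and 5.06 CPM, and CADM2 had no counts. In the binomial test between the libraries described further on, 3 of the 6 were called higher in replicate 2 and 1 higher in replicate 1, where 30.1% and 27.5% of all tested genes were called, 57.7% in either direction. Of 9 listed genes around PVR and PVRL2 in 19q13, 7 reached it, and 5 of these were called, all higher in replicate 1, against 57.7% of all tested genes called and 27.5% called higher in replicate 1. TOMM40, a gene of the mitochondrial protein import pore, was the highest per length with 206 and 166 CPM, the apolipoprotein gene APOE the lowest of the 7 with 0.604 and 0.336 RPKM, and CEACAM16 and CBLC had no counts.

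CD47, the gene of the ligand that inhibits phagocytosis, was at the level of PVR by merged exon length. Its 3916 and 2487 counts (chromosome 3, 107761938 to 107810709) gave 20.6 and 16.8 RPKM, and 18.7 ± 2.72 RPKM (SD, n = 2), higher than in 88.3% of genes. The receptor gene SIRPA was also read in these cells, with 3665 and 2412 counts, 32.1 RPKM in replicate 1 and 27.1 RPKM in replicate 2. Per length, CD47 was at 0.643 and 0.621 of SIRPA in the same libraries, and the ranges of both genes did not overlap. SIRPA resembles other genes of its family in sequence, so its level is uncertain where reads match several of them; SIRPG, which encodes another CD47-binding protein, had 1 count in each library. Of 8 listed partners of CD47, 7 reached a mean count of 20. Among these were CALR, the calreticulin that promotes phagocytosis when exposed on the surface, with 358 and 312 RPKM, THBS1, the matrix ligand thrombospondin 1, with 37.4 and 87.1 RPKM, and QPCTL, whose enzyme modifies the SIRPα-binding end of CD47, with 18.4 and 12.8 RPKM. LRP1, the receptor of calreticulin on phagocytes, was the lowest of the 7, with 2.92 and 5.08 RPKM. Between the libraries all 7 were called, 4 higher in replicate 2, THBS1 and LRP1 among them, and 3 higher in replicate 1, against a background of 57.7% of all tested genes.

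The PD-1 ligand genes CD274 and PDCD1LG2 were both read at a middle level, and PDCD1LG2, which encodes PD-L2, was the higher per length. CD274, the gene of PD-L1 (chromosome 9, 5450503 to 5470566), was read 277 and 352 times, which is 2.93 RPKM in replicate 1 and 4.76 RPKM in replicate 2. PDCD1LG2 follows it at 5510531 to 5571282, and its 325 and 362 counts gave 5.80 and 8.28 RPKM. PDCD1LG2 stood above CD274 in both libraries, 1.98-fold in replicate 1 and 1.74-fold in replicate 2 per length. By mean RPKM, 73.6% of genes with a length lay below PDCD1LG2 and 64.3% below CD274, genes without counts included. Over genes with a mean count of at least 20 the median was 6.39 RPKM, with CD274 below it at 3.85 RPKM and PDCD1LG2 above it at 7.04 RPKM. The receptor gene PDCD1, which encodes PD-1, had no counts in either library.

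C10orf54, the gene of VISTA, which is best known as an inhibitory protein of myeloid and T cells, was at a level like that of CD274. Its 622 counts in replicate 1 and 385 in replicate 2 (chromosome 10, 73507313 to 73533277) gave 5.24 and 4.15 RPKM. It was above CD274 in replicate 1 and below it in replicate 2, so that the order of both genes depended on the library. C10orf54 lies within CDH23 on the opposite strand, which had no counts and shares no exonic bases with it.

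LGALS9, VTCN1 and CD80 were the lowest of the ligand genes. LGALS9, which encodes the secreted lectin galectin-9, was read 68 and 53 times (chromosome 17, 25956824 to 25976586). This is 2.95 CPM in each library, with 95% counting intervals (exact Poisson) of 2.29 to 3.74 CPM in replicate 1 and 2.21 to 3.85 CPM in replicate 2, and 0.516 RPKM in each. Its near-identical copies LGALS9B and LGALS9C were read 2 and 0 times and 2 and 1 times, and reads that match several copies may not have been counted, so the level is uncertain. The merged exons of LGALS9 also share 294 bp with an annotated gene on the same strand that has no symbol among the counts. Of 12 other galectin genes 3 reached a mean count of 20, and LGALS1, a secreted lectin that is abundant in mesenchymal cells, had 1170 and 759 RPKM. The lowest of the 3 was LGALS3, the gene of galectin-3, with 4.28 and 2.33 RPKM.

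VTCN1, the gene of B7-H4 (chromosome 1, 117686209 to 117753582), was read 4 times in replicate 1 and once in replicate 2. These are 0.174 CPM, with a 95% counting interval of 0.0473 to 0.444 CPM, and 0.0556 CPM, with an interval of 0.00141 to 0.310 CPM, so the values are near the limit that a count of 0 allows. CD80 (chromosome 3, 119243140 to 119278461) had no counts, which by the limit given above leaves room for at most 0.130 CPM in replicate 1 and at most 0.167 CPM in replicate 2. Of its 3213 bp of merged exons, 798 bp overlap TIMMDC1 on the opposite strand, which had 2003 and 1304 counts. CD86, the other ligand of CD28 and CTLA-4, had 0 and 1 counts, and both receptor genes were at the same limit, CD28 with 1 and 0 counts and CTLA4 with none.

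The receptors that these ligands meet on immune cells had from 0 to 9 counts, with the exception of SIRPA. Of 10 receptor genes, SIRPA alone reached a mean count of 20. TIGIT had no counts, CD226 had 4 and 9, CD96 had 3 and 0, PVRIG had 3 and 7, and HAVCR2 had 3 and 0.

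**Figure D3:**
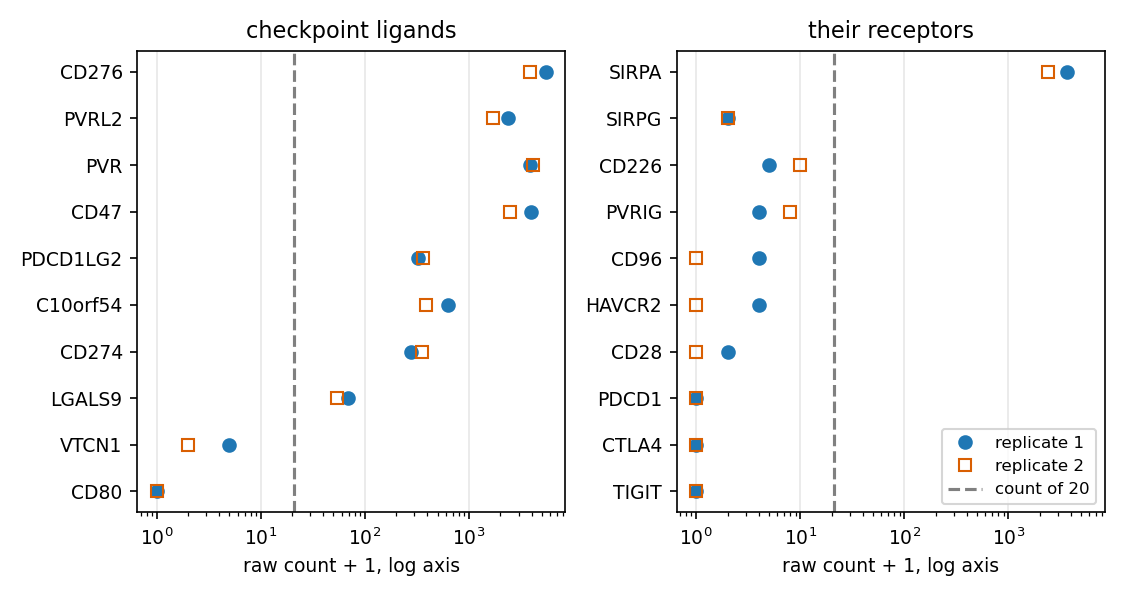
Raw counts plus 1, on a log axis, of the 10 ligand genes (left panel) and of 10 receptor genes (right panel). Filled circles are replicate 1, open squares replicate 2, and the dashed lines mark a count of 20, which SIRPA alone passed among the receptors with 3665 and 2412 counts.

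The libraries differed at most of the measured ligand genes by more than counting error. The exact binomial test of edgeR, which compares these libraries and not conditions, called 7 of the 8 ligand genes with at least 10 counts, at a Benjamini-Hochberg adjusted p below 0.05 over 13744 genes. It called 57.7% of all genes tested, so 7 of 8 is to be read against a background in which most genes differ. This background is not matched by depth. It includes genes with as few as 10 counts, and the test passes genes with many counts more readily. CD274, PDCD1LG2 and PVR were higher in replicate 2, a direction in which 30.1% of all genes were called. C10orf54, CD47, CD276 and PVRL2 were higher in replicate 1, as were 27.5% of all genes. When the dispersion between the libraries was taken into account in the negative binomial test of edgeR, 0 of the 8 genes and 0.284% of all genes passed. This dispersion was estimated from the same 2 libraries whose difference was tested, so few calls follow from its construction and the test says nothing on whether the genes are stable. At an unadjusted p below 0.05 this test gave 0 of the 8 and 735 of all genes.

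CD274 had the largest difference of the tested ligand genes, a log2 ratio of replicate 2 over replicate 1 of 0.70, with a 95% counting interval of 0.47 to 0.94 (adjusted p = 4.60e-09, exact binomial test of edgeR). Of all tested genes, 9.30% lay further in this direction. PDCD1LG2 followed with 0.51 and an interval of 0.29 to 0.73 (adjusted p = 1.14e-05, same exact test), and PVR with 0.44 and an interval of 0.38 to 0.50 (adjusted p = 2.42e-41, same exact test). In the other direction, C10orf54 had −0.33, CD47 −0.30 and CD276 −0.15, whose intervals did not include 0. PVRL2 had −0.12 with an interval of −0.21 to −0.03 (adjusted p = 0.0166, exact binomial test of edgeR). LGALS9 did not pass the test, and its interval of −0.55 to 0.54 leaves room for differences as large as that of PDCD1LG2.

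These differences were set against gene length, since it went with the ratio across all genes. For the length of PVR, the trend across genes was 0.30, and 0.14 remained after its removal (adjusted p = 4.92e-05 in an exact binomial test). PVRL2 lay on the trend, with −0.00 remaining, and no longer passed the test (adjusted p = 0.988, exact binomial test). CD47 lay further below, at −0.50. CD274 and PDCD1LG2, for whose lengths the trend was −0.08 and −0.27, lay at 0.78 each, and 4.64% and 4.65% of 13022 genes lay above them. Whether length, RNA quality or the cultures had a part in these differences was not tested.

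**Figure D4:**
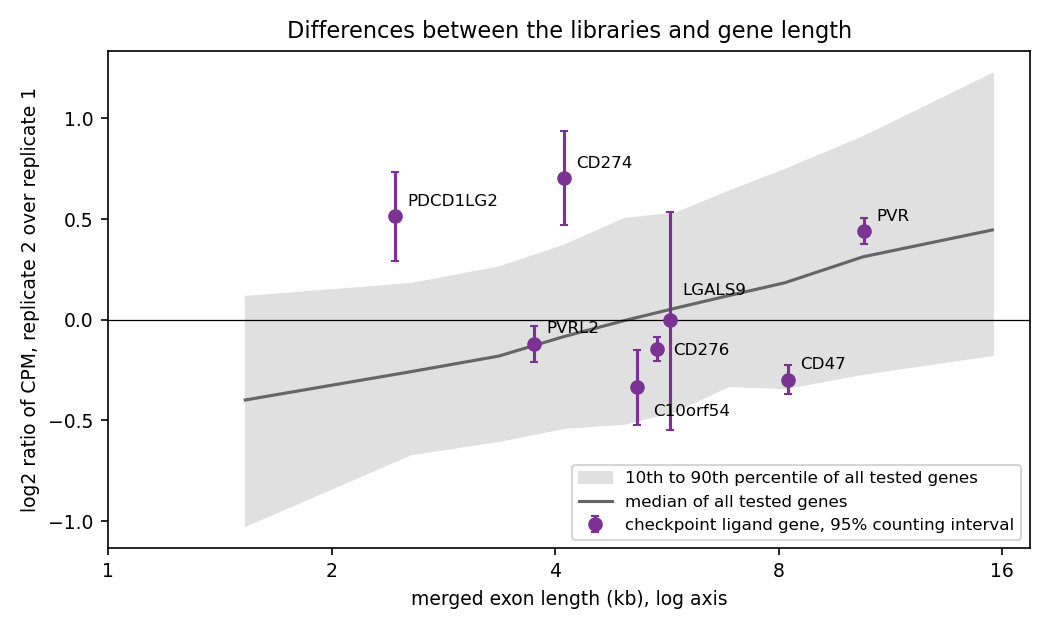
Log2 ratio of CPM of replicate 2 over replicate 1 against merged exon length in kb, on a log axis. Points are the 8 ligand genes tested, with 95% counting intervals, the line and the grey band are the median and the 10th to 90th percentiles of all tested genes in 10 length bins, and CD274 and PDCD1LG2 lie above the band at 0.70 and 0.51.

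The genes next to CD274 and PDCD1LG2 in 9p24.1 ranged around the level of the pair. Of 13 listed neighbours, 8 reached a mean count of 20, from AK3, a mitochondrial adenylate kinase gene, with 14.7 and 12.7 RPKM, to KIAA2026 with 1.11 and 1.37 RPKM. JAK2, the kinase that passes on the interferon-γ signal, lies before CD274 at 4984390 to 5129948 and had 2.27 and 3.17 RPKM from 413 and 451 counts. C9orf46, the older symbol of the plasminogen receptor gene PLGRKT, is the nearest listed gene before CD274 and had 8.44 and 8.11 RPKM. Between JAK2 and C9orf46, the genes of insulin-like and relaxin hormones INSL6, RLN2 and RLN1 had no counts, and INSL4 had 6 and 4. In the binomial test between the libraries, JAK2, KIAA1432, ERMP1 and UHRF2 were called higher in replicate 2 and AK3 higher in replicate 1, which is 5 of 9 tested neighbours and near the 57.7% of all tested genes.

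After removal of the length trend, the log2 ratio of replicate 2 over replicate 1 was above 0 at 6 of the 8 neighbours, against 6448 of 13022 tested genes. The values were 0.33 at C9orf46 and 0.53 at KIAA1432, which flank the pair, and 0.30 at JAK2. They were 0.22 at RCL1, 0.08 at KIAA2026, 0.07 at UHRF2, −0.02 at ERMP1 and −0.16 at AK3. Without this removal the ratio was −0.06 at C9orf46, which did not pass the test, 0.75 at KIAA1432, 0.48 at JAK2, 0.40 at ERMP1, 0.35 at UHRF2, 0.30 at KIAA2026, 0.14 at RCL1 and −0.21 at AK3. The order of the neighbours therefore depended on the removal, and no order by distance from the pair is read from it.

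**Figure D5:**
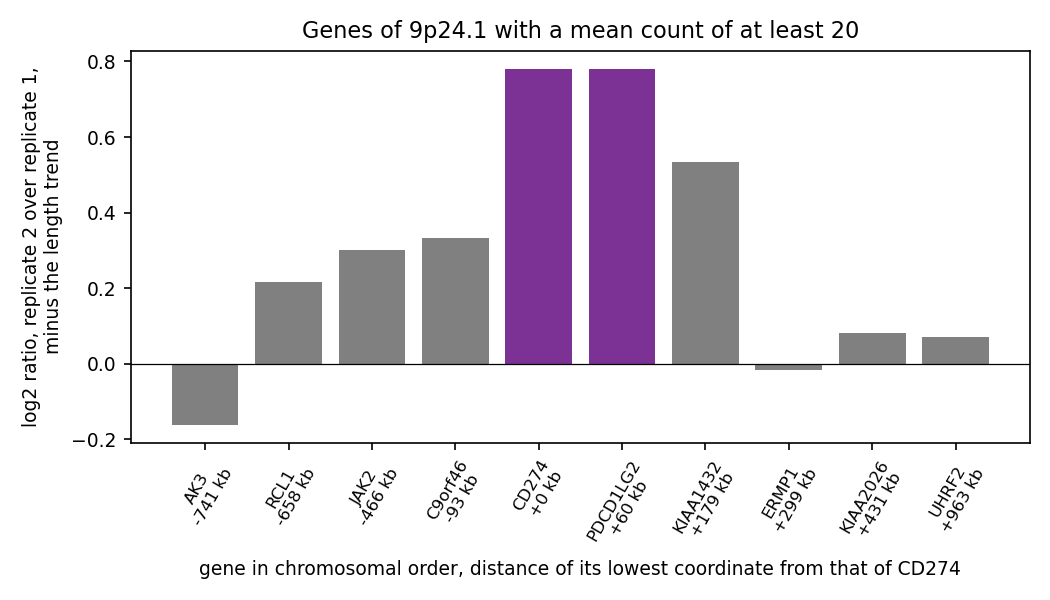
Log2 ratio of replicate 2 over replicate 1 less the length trend, for the 10 genes of 9p24.1 with a mean count of at least 20, in chromosomal order with the distance of the lowest coordinate of each gene from that of CD274 in kb. Bars are single values without replicates, purple for CD274 and PDCD1LG2 at 0.78 each and grey for the neighbours, from −0.16 at AK3 to 0.53 at KIAA1432.

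Interferon-γ induces CD274 through its receptor and JAK kinases. IFNG, the cytokine gene, had no counts, and the other 12 of 13 listed genes of this pathway reached a mean count of 20. The highest per length was the receptor gene IFNGR1 with 51.0 and 40.5 RPKM and the lowest of the 12 was JAK2. IRF1, a transcription factor that activates CD274, had 7.16 and 5.90 RPKM. Between the libraries, 4 of the 12 were called higher in replicate 2, among them JAK2, and 7 higher in replicate 1, among them IRF1, in the binomial test, which called 57.7% of all tested genes. Of 10 listed regulators of the PD-L1 protein, 9 reached a mean count of 20. CMTM6, which keeps PD-L1 at the cell surface, had 26.2 and 24.6 RPKM, and the ubiquitin ligase gene STUB1, the highest of the list, had 58.2 and 48.0 RPKM. GSK3B, a kinase that promotes the degradation of PD-L1, was the lowest of the 9 with 4.75 and 5.85 RPKM. The glycosyltransferase gene B3GNT3, whose enzyme modifies PD-L1, had 14 and 19 counts. Of the 10 regulators, 4 were called higher in replicate 2 and 1 higher in replicate 1, a share not above the 57.7% of all tested genes.

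Other ligand families were read in part. Of 16 other B7 and butyrophilin genes in the files, 7 reached a mean count of 20. These were the butyrophilin genes BTN2A1, BTN2A2, BTN3A1, BTN3A2 and BTN3A3, led by BTN3A2 with 9.27 and 9.14 RPKM, together with ERMAP and ICOSLG, the gene of the ICOS ligand, which was the lowest of the 7 with 0.147 and 0.243 RPKM. Of these 7, ICOSLG and ERMAP were called higher in replicate 2, against 30.1% of all tested genes, and the 5 butyrophilin genes did not pass the test. Genes of the butyrophilin family share sequence, so their levels are uncertain. HHLA2 and VSIG4, of the B7 family and its relatives, had no counts. Of 8 other inhibitory ligands 6 reached a mean count of 20, and of those with a length CEACAM1 was the lowest with 0.463 and 0.433 RPKM and LGALS1 the highest. CD200 had no counts, and 4 of the 6 were called higher in replicate 1, against 27.5% of all tested genes in this direction and 57.7% in either. Of 8 costimulatory ligands, ICOSLG included, 5 did, the highest being CD58, the ligand of CD2, with 17.2 and 13.8 RPKM. Of the 5, CD58, CD70 and TNFSF9 were called higher in replicate 1 and ICOSLG higher in replicate 2, against the same 57.7%.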

How the data were processed

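PolyA RNA of doxorubicin-resistant SUM159 cells was sequenced from 2 libraries with a directional kit. The deposited values are raw counts by symbol, which the authors made with HISAT2 (hg19 alignment) and HTSeq (gene counting); FastQC and deepTools are also listed in the submitters' processing notes. Tool versions, gene annotation, strand setting and the treatment of reads with several matches: not given in the sources used here. Both tables have no rows for reads outside genes.

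CPM were computed from the library totals and divided by the merged exon length of GENCODE v44lift37 (GRCh37), to which 21208 symbols (90.8%) were matched, 1895 of them by older symbols in a RefSeq table, to give RPKM. Both libraries form 1 group, so no conditions were compared. Libraries were compared with the exact binomial test of edgeR 4.0.16 on genes with at least 10 counts over both, with Benjamini-Hochberg adjustment. The test was tried on simulated counts that held counting error only, so this trial does not cover the spread between real libraries. Alternatives were TMM and DESeq2 1.42.0 scaling, no filter on counts, a lowess length trend, a negative binomial test, other minimum counts, longest transcripts as length and each library alone. The minimum mean count of 20 follows the methods of the study.

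The members and gene lists were chosen with earlier results of these data known. All 10 members are named, and of each list the genes of highest and lowest RPKM with a mean count of at least 20, genes that bind a member or copy it, and neighbours in 9p24.1. Other genes, such as NCAM1, IRF1 and CMTM6, were named after their values were seen, and some genes of the lists are not reported here. Of the lists given for control, 3 of 5 epithelial, 5 of 5 mesenchymal and 10 of 10 ubiquitous genes reached a mean count of 20, the last from GAPDH with 2244 and 1710 RPKM to TBP with 10.2 and 10.3 RPKM. Python 3.11.15, pandas 2.3.3, scipy 1.17.1, matplotlib 3.10.9 and R 4.3.3 were used.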

Additional observations from a re-analysis of the deposited data

How the results depend on the processing

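The number of ligand genes that reached the minimum mean count was 8, also at a minimum of 10 and in each library alone (8 to 8), and 7 at a minimum of 100, which LGALS9 did not reach. The order by mean RPKM was the same with the longest transcript as length, but some distances between genes depended on the length used. With the longest transcript, PVR was above CD47 in both libraries, and PVRL2 was only just above PVR in replicate 2. PDCD1LG2 was likewise only just above C10orf54 in replicate 1. By merged exon length, 8 of 10 genes kept their place in either library alone (8 to 8). There PVR and CD47 or C10orf54 and CD274 changed places. The 7 genes that differed between the libraries in the binomial test stayed 7 with TMM or DESeq2 scaling and without the filter on counts. Of all genes tested, 57.9%, 57.5% and 46.4% were called in these settings, in this order, against 57.7% in the main test. After removal of the length trend, 6 ligand genes were called, without PVRL2, and 52.2% of all genes tested. In the negative binomial test 0 ligand genes and 0.284% of all genes were called. Its dispersion was estimated from the same libraries, so that few calls are built in. Leaving out a library ends this comparison. The levels in CPM moved by less than the spread between the libraries under each scaling. No paired analysis was possible because the series holds a single group. Apart from SIRPA, the receptor genes, like VTCN1 and CD80, are limited by depth. They had at most 9 counts in a library and lie at or near the limit of a count of 0.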

Other observations

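Other surface proteins and enzymes by which cells evade immunity were examined from lists added after the data had been seen. The complement regulators CD46, CD55 and CD59 all reached a mean count of 20, and CD59, which blocks the membrane attack complex, was the highest with 57.7 and 46.7 RPKM and CD46 the lowest with 12.2 and 13.6 RPKM. Of 7 genes of adenosine and tryptophan metabolism 5 did. NT5E, the CD73 enzyme that produces adenosine, had 23.9 and 18.7 RPKM, whereas ENTPD1, the enzyme before it, had 3 and 2 counts, and DPP4 was the lowest of the 5 with 32 and 16 counts. IDO1, which degrades tryptophan and is induced by interferon-γ, was read 418 times in replicate 1 and 170 times in replicate 2.

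Of 8 ligands of the activating receptor NKG2D 6 reached a mean count of 20, the highest by mean being MICA with 5.65 and 3.78 RPKM, next to ULBP2 with 5.69 and 3.50 RPKM, and the lowest RAET1E with 0.732 and 0.659 RPKM. MICB and RAET1L did not reach this count. Of 6 adhesion ligands of lymphocytes 4 did, led by ICAM1, the ligand of LFA-1, with 38.2 and 43.2 RPKM, and VCAM1 was the lowest of the 4 with 1.08 and 0.717 RPKM. Genes of the NKG2D ligand families share sequence, so their levels are uncertain.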
